A study of Homo sapiens with 7 samples.

Results

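Metastasis suppressors are genes whose products hold back the spread of a tumour while leaving growth at the primary site largely as it was. The 8 genes described here were KISS1, CD82, ARHGDIB, MAP2K4, PEBP1, NME1, BRMS1 and NDRG1. The list was set by gene name, though earlier results of these data were known when it was chosen. All probe sets that carried one of these symbols alone were taken, which gave 14 probe sets on 7 arrays. The 8 genes are among 19775 genes with such a probe set in the table, and all 8 had at least 1 probe set above the filter on low signal, as did 13640 genes in all. Of the 14 probe sets, 13 passed this filter, and the one below it belongs to CD82.

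The arrays measured total RNA of cultured lines that all descend from PC-3, an established line of human prostate cancer cells, and all express luciferase. TEM4-18 (2 arrays) was selected from PC-3 in culture by passage through a layer of endothelial cells of lung microvessels, and the other 5 lines (1 array each) were recovered from mice after injection into a vein. GS683.LALN and JD1203.Lu grew out of injected TEM4-18 and are called the TEM4-18 sublines. GS672.Ug grew out of injected PC-3, while GS689.Li and GS694.LAd grew out of injected JD549.Ki, a kidney-derived line from an earlier PC-3 injection, and these 3 are called the PC-3 sublines. The organs given are the urogenital tract for GS672.Ug, liver for GS689.Li, left adrenal for GS694.LAd and lung for JD1203.Lu. For GS683.LALN the sample's own description gives the left axillary lymph node and the text on the design gives the lung. JD1203.Lu carries JD549.Ki in its source name although its description names TEM4-18 as parent, and GS694.LAd is itself termed JD549.Ki in its description. Each subline is a single line with a single array, all cultures were untreated, and neither parental PC-3 nor JD549.Ki was analysed here. The PC-3 sublines do not descend from TEM4-18. In comparisons of the PC-3 sublines with TEM4-18, parent line and growth in the mouse therefore cannot be told apart. Words such as rose or fell mean only higher or lower than the group compared. Nothing in the labels says that the TEM4-18 duplicates came from separate cultures, so p-values measure only the spread among these arrays, part of which may be technical. An array reads the RNA of a whole culture, so fewer cells expressing a gene and less RNA per cell cannot be told apart.

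The products of these genes act at different points of the cell. KISS1 encodes a secreted precursor that is cut into kisspeptins, ligands of the receptor KISS1R. CD82 (KAI1) is a tetraspanin of the plasma membrane, and ARHGDIB is a GDP dissociation inhibitor that holds small GTPases in the cytosol. MAP2K4 is a kinase that activates the JNK and p38 stress kinases, and PEBP1 is an inhibitor of the ERK kinase cascade. NME1 is a nucleoside diphosphate kinase, BRMS1 a component of SIN3 histone deacetylase complexes, and NDRG1 a protein induced by hypoxia, iron depletion and differentiation.

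In the RefSeq table of assembly GRCh38.p14, KISS1 lies on chromosome 1 (204190341 to 204196491), CD82 and BRMS1 lie on chromosome 11 (44564409 to 44620358 and 66337339 to 66345104), and ARHGDIB and PEBP1 on chromosome 12 (14942015 to 14961601 and 118136124 to 118145584). MAP2K4 and NME1 are on chromosome 17 (12020877 to 12143828 and 51153559 to 51162168). The RefSeq promoter table of this assembly matched 7 of the 8 genes, all except NDRG1. The 250 bases before a listed start are shown for the members with the widest signal range (KISS1 and ARHGDIB) and the narrowest (MAP2K4). All windows listed for ARHGDIB lie within the gene span given above. The one shown has the lowest coordinates, so it is the furthest downstream of them on the minus strand. They come from the strand of the gene, at chr1:204196492-204196741 (minus strand), chr12:14948897-14949146 (minus strand) and chr17:12020627-12020876 (plus strand), and capitals mark CG dinucleotides and matches to TATAAA on either strand.
KISS1: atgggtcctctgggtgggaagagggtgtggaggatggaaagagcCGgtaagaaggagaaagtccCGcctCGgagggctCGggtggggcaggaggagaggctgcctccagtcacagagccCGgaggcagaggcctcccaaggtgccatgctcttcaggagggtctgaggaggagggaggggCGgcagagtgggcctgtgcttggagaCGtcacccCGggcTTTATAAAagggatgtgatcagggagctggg
ARHGDIB: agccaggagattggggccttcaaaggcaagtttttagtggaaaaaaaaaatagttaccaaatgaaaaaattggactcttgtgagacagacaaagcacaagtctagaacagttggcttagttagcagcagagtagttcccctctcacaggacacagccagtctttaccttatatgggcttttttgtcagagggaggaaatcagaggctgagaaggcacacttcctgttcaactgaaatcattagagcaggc
MAP2K4: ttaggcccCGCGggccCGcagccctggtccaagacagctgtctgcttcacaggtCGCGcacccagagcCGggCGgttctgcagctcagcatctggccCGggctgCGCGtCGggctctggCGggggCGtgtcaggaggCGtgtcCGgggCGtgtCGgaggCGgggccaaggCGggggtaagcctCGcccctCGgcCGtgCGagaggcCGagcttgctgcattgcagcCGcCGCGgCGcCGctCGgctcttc
The window of KISS1 held 8 CG dinucleotides against a median of 11 over all 35116 windows of this length, and that of MAP2K4 held 30. The ARHGDIB window shown held 0, as few as in 6.1% of all windows, and the other windows listed for this gene held 2 and 3. The remaining members lay between 16 (NME1) and 26 (CD82). A match to TATAAA was found in KISS1 alone of these members, and in 10.7% of all windows. The matches in KISS1 overlap on both strands, and the first, which begins at position -31, is on the strand opposite the gene. These are descriptions of the letters in the windows, and no binding or methylation was measured here.

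Signals are linear array intensities that share a trimmed mean of 1500.2 on all 7 arrays, with array medians from 239.1 to 297.2. Differences are given on the scale of log2(signal + 46.942), where the offset understates differences of dim probe sets, and the signals of different genes are not compared. Between the TEM4-18 duplicates, 573 of 13640 tested genes (4.2%) were separated by 2-fold or more, and the SD of their log2 difference was 0.415. Over all 13640 genes, 0% passed limma at an adjusted p of 0.05 for all 5 sublines against TEM4-18, 3.38% for the PC-3 sublines, 0.0733% for the TEM4-18 sublines and 3.76% between the subline groups, and 5.28% passed in at least 1 of these comparisons. Under an unadjusted p of 0.05 lay 8.33%, 17.8%, 9.72% and 19.7% of all genes in the same order, and the counts of listed genes given below are to be read beside these shares. Of the markers of prostate epithelium and PC-3, 10 of 12 were in the table and 8 passed the filter, among them KRT8, KRT18, EPCAM, VIM and CD44, while KRT5 and FOLH1 did not.

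KISS1 was the member with the widest spread. Its probe set read 44.8 and 64.9 in TEM4-18, 41.1 in GS672.Ug, 33.4 in GS683.LALN, 269.9 in JD1203.Lu, 1827 in GS689.Li and 7436 in GS694.LAd. The liver and adrenal lines, which share the parent JD549.Ki, stood far above every other array, the lung line came next, and the remaining 4 arrays lay close together at or near the offset. Within its own array the probe set ranked at the 21.2 and 24 percentiles in TEM4-18, 17.9 in GS672.Ug and 16.6 in GS683.LALN. It ranked at 51 in JD1203.Lu, 78.3 in GS689.Li and 93 in GS694.LAd. Measured from the mean of the duplicates, the log2 difference was 6.21 in GS694.LAd, 4.21 in GS689.Li, 1.65 in JD1203.Lu, -0.20 in GS672.Ug and -0.33 in GS683.LALN. The last of these differences are about the size of the log2 gap between the duplicates, 0.29, so GS672.Ug, GS683.LALN and TEM4-18 cannot be ordered. GS694.LAd read 4.07 times the signal of its sister line GS689.Li, and JD1203.Lu stood 1.98 log2 units above GS683.LALN, a size that rests on the offset because the lower line lay under it. These pairs were compared by size alone, with no replicate.

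The groups of the design joined lines with high and low KISS1, so its differences carried wide errors. The 5 in vivo sublines (n = 5) differed from TEM4-18 (n = 2) by 2.31 ± 1.61 (SE; limma adjusted p = 0.713). The difference was 3.41 ± 1.51 (limma adjusted p = 0.284) for the PC-3 sublines (n = 3), with a 95% interval from -0.01 to 6.82, and 0.66 ± 1.65 (adjusted p = 0.927) for the TEM4-18 sublines (n = 2). The PC-3 sublines differed from the TEM4-18 sublines by 2.75 ± 1.51 (limma adjusted p = 0.356). None of these differences passed the threshold of 0.05, and the groups overlapped in all 4 comparisons. KISS1 passed the filter on low signal through its high arrays alone, since its mean over the other 5 arrays, without GS689.Li and GS694.LAd, was 90.8 against a filter of 160.67. With GS672.Ug left out, those 2 sister lines alone made up the PC-3 group, and the fitted difference was 5.21 ± 0.78 against TEM4-18 (limma adjusted p = 0.00972) and 4.55 ± 0.78 against the TEM4-18 sublines (limma adjusted p = 0.0142). In those fits 6.89% and 8.38% of all genes passed. A gene that enters through the lines where it is high had to differ there, so these values describe the 2 lines and lend the group comparison no support.

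**Figure D1:**
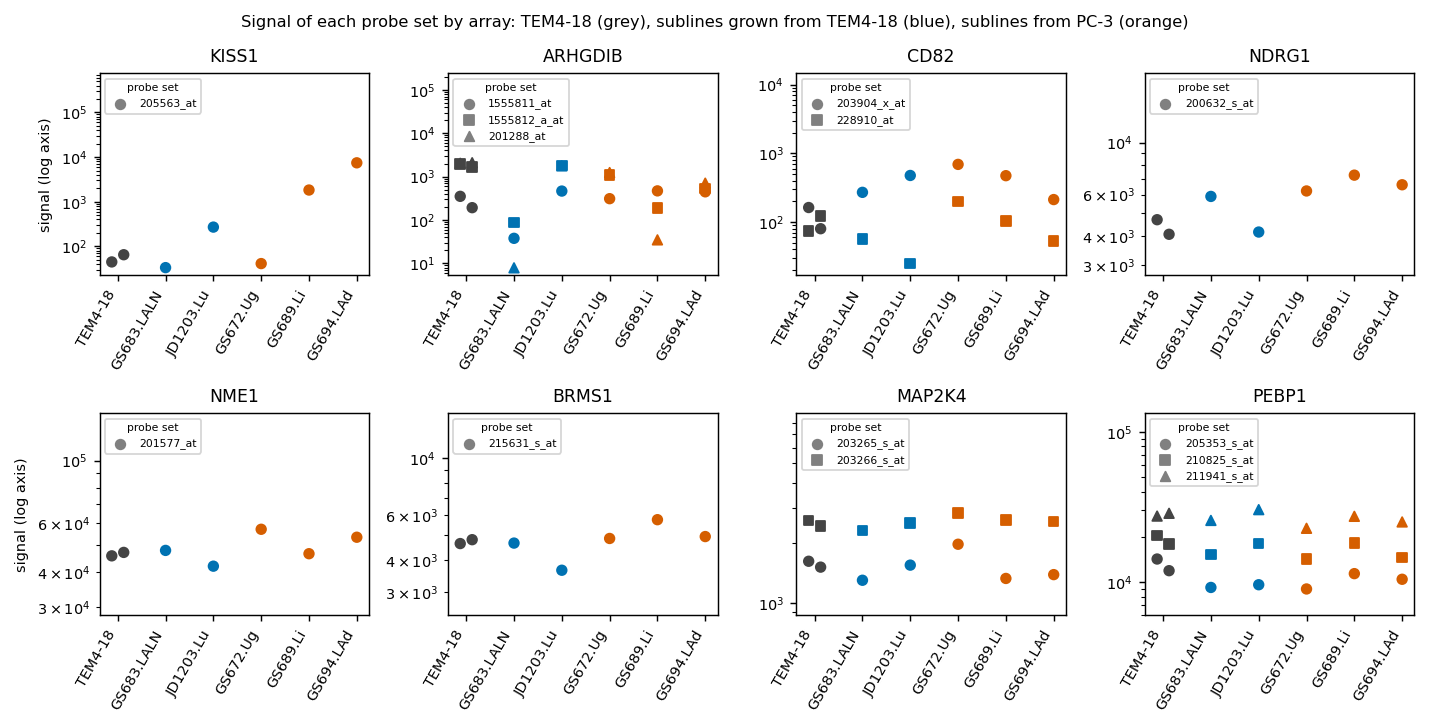
Signal of each of the 14 probe sets (log axis, own scale in each panel) on the 7 arrays, with TEM4-18 in grey, TEM4-18 sublines in blue and PC-3 sublines, including those grown by way of JD549.Ki, in orange; marker shapes stand for probe sets. KISS1 reaches 1827 and 7436 in GS689.Li and GS694.LAd and stays under 270 elsewhere, while 2 of the 3 ARHGDIB probe sets are lowest in GS683.LALN and GS689.Li.

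By Pearson correlation of log2 values over the 7 arrays, the genes most like KISS1 among 6819 candidates were MAGOH-DT (r = 0.99), MMP24OS (0.99), RNF130 (0.98), WDR41 (0.97) and ITGA10 (0.97). The arrays share their scaling, and the liver and adrenal lines have a common parent, so these values describe likeness only. ITGA10, an integrin alpha chain that binds collagen, read 474 and 536 in TEM4-18, 486 in GS672.Ug, 494 in GS683.LALN, 763 in JD1203.Lu, 1126 in GS694.LAd and 1019 in GS689.Li. RNF130, a RING finger protein, read 2797 to 3300 on the other 5 arrays against 4541 in GS689.Li and 5200.1 in GS694.LAd. All 5 genes were highest in GS694.LAd and second highest in GS689.Li, and the span of each was much narrower than that of KISS1.

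**Figure D2:**
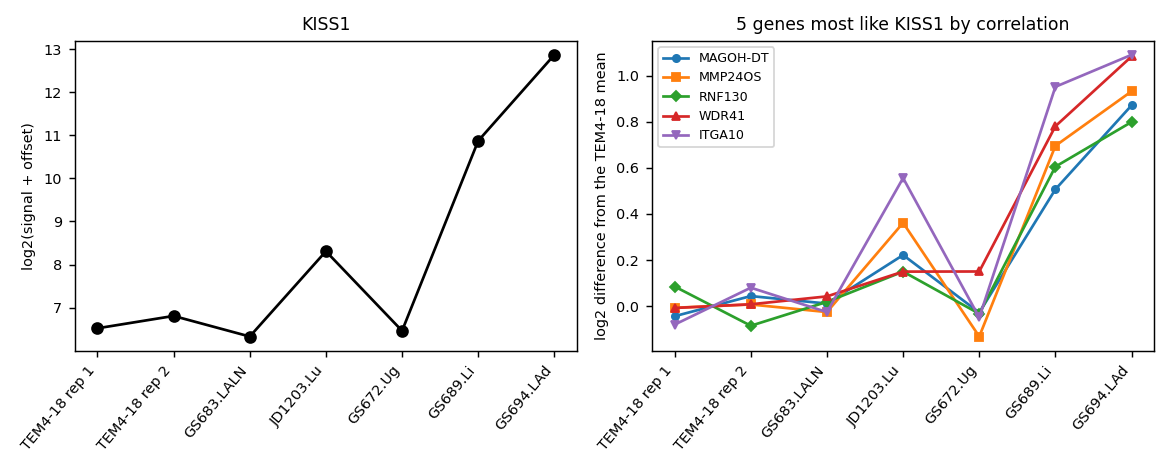
Log2(signal + offset) of KISS1 on the 7 arrays (left) and log2 difference from the TEM4-18 mean of the 5 genes whose values correlate best with it (right). The right axis spans little more than 1 log2 unit while KISS1 spans over 6, and all 6 genes peak in GS694.LAd.

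Genes for kisspeptin signalling and for the processing of its precursor gave 11 tested genes of 15 listed. The receptor KISS1R was listed but was not among those tested. Against TEM4-18, 2 of the 11 rose in the PC-3 sublines, namely the arrestin ARRB1 by 1.22 ± 0.24 (limma adjusted p = 0.0298) and the membrane-bound metalloprotease MMP14, of a class known to cut kisspeptins, by 1.06 ± 0.17 (adjusted p = 0.0129). ARRB1 read 449 and 447 in TEM4-18 and 1063 to 1194 in the PC-3 sublines, with 599.6 in GS683.LALN and 951 in JD1203.Lu between them. The list's median difference there was 0.28, beside 0.05 over all genes tested. No listed gene passed limma in the other 3 comparisons, where 2 (all sublines), 1 (TEM4-18 sublines) and 4 (PC-3 sublines against TEM4-18 sublines) lay under an unadjusted p of 0.05. For the PC-3 sublines against TEM4-18, where ARRB1 and MMP14 passed, 3.38% of all genes did. Both calls were lost when either TEM4-18 array, GS689.Li or GS694.LAd was left out, with adjusted p up to 0.249 for ARRB1 and 0.197 for MMP14, and when GS689.Li and GS694.LAd were averaged (0.0918 and 0.0567). As the mean of its probe sets MMP14 differed by 0.60 (limma adjusted p = 0.0848), and ARRB1 was also lost with no filter (0.0691) and with median centring (0.0528).

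ARHGDIB lay furthest below TEM4-18 of the members. Its probe set of highest mean (201288_at) read 2029.8 and 2089 in TEM4-18, 1767 in JD1203.Lu, 1240.2 in GS672.Ug, 707 in GS694.LAd, 34.9 in GS689.Li and 7.9 in GS683.LALN. All 5 sublines lay below both duplicates, GS689.Li and GS683.LALN lay below the offset, and JD1203.Lu stood near TEM4-18. A second probe set (1555812_a_at) gave 1974 and 1689 in TEM4-18, 1822 in JD1203.Lu, 1105 in GS672.Ug, 536 in GS694.LAd, 188 in GS689.Li and 87.3 in GS683.LALN. It kept the order of the 5 sublines, although here JD1203.Lu fell between the duplicates. The last (1555811_at) read 351 and 193 in TEM4-18, 37.8 in GS683.LALN and 310.3 to 469 in the other 4 sublines, so it was low in GS683.LALN and not in GS689.Li. The probe sets of this gene therefore disagreed on GS689.Li and GS694.LAd.

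On 201288_at, JD1203.Lu stood 5.05 log2 units above its sister line GS683.LALN, and GS694.LAd 3.20 above GS689.Li. The lower line of each pair lay under the offset, so both sizes rest on it, and on 1555811_at GS694.LAd and GS689.Li read 446 and 469. The log2 differences from TEM4-18 were -0.22 in JD1203.Lu, -0.71 in GS672.Ug, -1.48 in GS694.LAd, -4.69 in GS689.Li and -5.26 in GS683.LALN, against a gap of 0.04 between the duplicates. As groups, the difference from TEM4-18 was -2.47 ± 1.31 for all 5 sublines (limma adjusted p = 0.637), -2.29 ± 1.44 for the PC-3 sublines (adjusted p = 0.448) and -2.74 ± 1.57 for the TEM4-18 sublines (adjusted p = 0.608). The PC-3 sublines differed from the TEM4-18 sublines by 0.45 ± 1.44 (limma adjusted p = 0.902). The spread of ARHGDIB and that of KISS1 each lay at the 99.9 percentile of the SDs of all genes tested, so neither group mean described its lines well.

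ARHGDIB is known for its high expression in leukocytes. Of 12 leukocyte markers, 10 were in the table and 6 passed the filter. The summed signal of those 10 was 9112 to 9513 in TEM4-18, 4723 to 8012 in the PC-3 sublines and 6473 to 9966 in the TEM4-18 sublines. The 6 above the filter were LCP1 (2776 to 8417.5) and, by their highest array, CORO1A (675.5), WAS (552.1), CD3E (349), ITGAM (304.7) and MS4A1 (270.6). PTPRC (CD45), which defines leukocytes, stayed below the filter at no more than 228.6, as did CD3D (251.1), LYZ (210.3) and CD14 (141.1). The part of these markers in the result was not tested. The gene most like ARHGDIB over the 7 arrays was IRF7, a transcription factor of the interferon response (r = 0.98), at 2028 in GS683.LALN, 2172 in GS689.Li and 3398 to 3824 elsewhere. ERN2 (0.96) and FRAS1 (0.94) followed, both also lowest in GS683.LALN and GS689.Li.

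**Figure D3:**
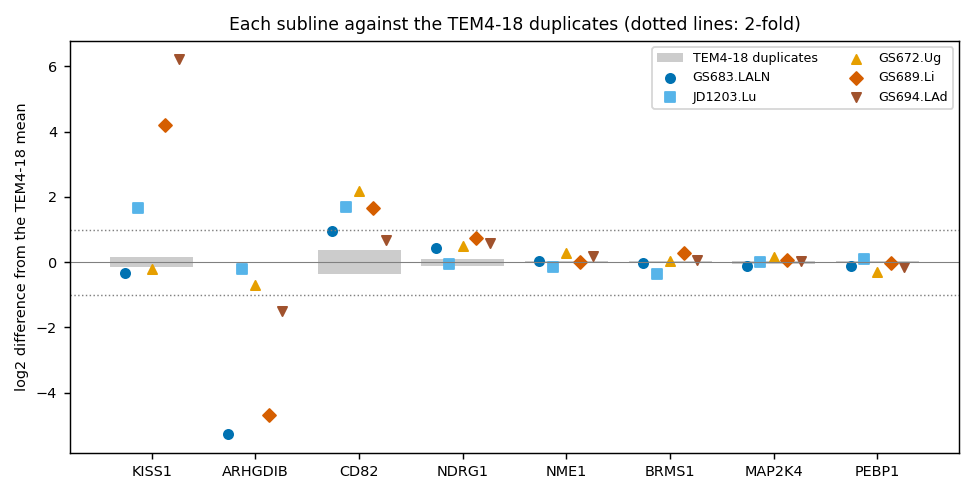
Log2 difference of each of the 5 sublines from the mean of the TEM4-18 duplicates, for the probe set representing each gene; grey boxes span the duplicates and dotted lines mark 2-fold. KISS1 ranges from -0.33 to 6.21 and ARHGDIB from -5.26 to -0.22, all CD82 points lie above the duplicates, and NME1, BRMS1, MAP2K4 and PEBP1 stay within 2-fold.

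CD82 was the only member whose signal was higher in all 5 sublines than in both TEM4-18 arrays. Its probe set 203904_x_at read 163 and 80.0 in TEM4-18, 212 in GS694.LAd, 271 in GS683.LALN, 473 in GS689.Li, 476 in JD1203.Lu and 690.2 in GS672.Ug. The TEM4-18 mean, 121.4, lay below the filter and the mean of the sublines, 424.4, above it, so CD82 was tested because of the arrays where it is high. Its differences from TEM4-18 describe these arrays and lend the group comparisons no support. The duplicates lay 0.72 log2 units apart, the largest gap among the 8 probe sets that represent the members, and the lower sublines stood not far above the higher duplicate. The difference from TEM4-18 was 1.43 ± 0.45 over all 5 sublines (limma adjusted p = 0.456), 1.51 ± 0.50 in the PC-3 sublines (adjusted p = 0.158) and 1.32 ± 0.55 in the TEM4-18 sublines (adjusted p = 0.482). The corresponding 95% intervals ran from 0.41 to 2.45, from 0.37 to 2.64 and from 0.08 to 2.56, before any adjustment for the number of genes. Between the subline groups the difference was 0.18 ± 0.50 (limma adjusted p = 0.881), with an interval from -0.95 to 1.32.

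The other probe set of CD82 (228910_at) lay below the filter and did not show this order. It read 74.2 and 124 in TEM4-18, 57.0 in GS683.LALN, 25.1 in JD1203.Lu, 200.5 in GS672.Ug, 52.9 in GS694.LAd and 105 in GS689.Li, so the sublines lay on both sides of the duplicates. The suffix of 203904_x_at marks a probe set whose probes may also bind other transcripts, and no CD82 value remained when such sets were left out. The genes most like CD82 were ACTN3 (r = 0.97), COLEC12 (0.97) and CLN8 (0.97). All 3 were lowest in replicate 2 of TEM4-18, as CD82 was.

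Among other tetraspanins and partners of CD82, 20 of 27 listed genes were tested, and 3 rose in the PC-3 sublines against TEM4-18, where 3.38% of all genes passed. TSPAN8, a tetraspanin of epithelia and carcinomas, read 241 and 280.1 in TEM4-18 and 1244 to 1756 in these lines, a difference of 2.39 ± 0.47 (limma adjusted p = 0.0302). TSPAN13 rose by 1.09 ± 0.17 (limma adjusted p = 0.0129) and CD9, itself counted among the metastasis suppressors, by 0.66 ± 0.13 (adjusted p = 0.0255). The list's median was 0.20 beside 0.05 for all genes. In the other comparisons 0 passed limma, with 4 (all sublines), 2 (TEM4-18 sublines) and 8 (between the subline groups) under an unadjusted p of 0.05. The 3 calls were lost without either TEM4-18 array, without GS689.Li or without GS694.LAd, with adjusted p up to 0.249 for TSPAN8, 0.184 for TSPAN13 and 0.261 for CD9. Averaging GS689.Li and GS694.LAd ended all 3 (limma adjusted p = 0.118, 0.0599 and 0.1), and TSPAN8 was also lost with no filter (0.0556). CD9 differed by 0.43 (limma adjusted p = 0.297) as the mean of its probe sets and by 0.47 (0.0751) with median centring.

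NDRG1 came nearest to the threshold in the comparison of the PC-3 sublines with TEM4-18. It read 4682 and 4056 in TEM4-18, 4147 in JD1203.Lu, 5888 in GS683.LALN, 6213 in GS672.Ug, 6604 in GS694.LAd and 7259 in GS689.Li. The 3 PC-3 sublines lay above all other arrays, and JD1203.Lu lay between the duplicates. The difference of the PC-3 sublines was 0.61 ± 0.18 against TEM4-18 (limma adjusted p = 0.119; 95% interval 0.20 to 1.02) and 0.43 ± 0.18 against the TEM4-18 sublines (adjusted p = 0.232). For all 5 sublines it was 0.44 ± 0.21 (limma adjusted p = 0.627), and for the TEM4-18 sublines 0.18 ± 0.20 (adjusted p = 0.807). Leaving out GS683.LALN or JD1203.Lu, which enter the PC-3 comparison through the shared spread estimate alone, kept the difference at 0.61 and gave adjusted p of 0.0473 and 0.0461. In those fits 5.2% and 5.25% of all genes passed.

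Of 18 listed NDRG family genes and regulators of NDRG1, 13 were tested. HIF1A, the oxygen-regulated subunit of the hypoxia-inducible factor, fell in the PC-3 sublines, with signals of 31132 to 37228 against 49468 and 53422 in TEM4-18 and 52939 and 53019 in the TEM4-18 sublines. The difference was -0.62 ± 0.11 against TEM4-18 (limma adjusted p = 0.021) and -0.66 ± 0.11 against the TEM4-18 sublines (adjusted p = 0.0155). No other gene of the list passed, beside 3.38% and 3.76% of all genes. In limma 0 passed for all 5 sublines and for the TEM4-18 sublines, where 1 each lay under an unadjusted p of 0.05. The list's median difference was -0.12 against TEM4-18, beside 0.05 for all genes. Both HIF1A calls were lost without either TEM4-18 array, without GS689.Li or without GS694.LAd, with adjusted p up to 0.261 against TEM4-18 and 0.074 against the TEM4-18 sublines. They were also lost with GS689.Li and GS694.LAd averaged (limma adjusted p = 0.0784 and 0.0617), and the first with no filter (0.0501). The genes most like NDRG1 were IFT122, TCN2 and TYRO3 (r = 0.98 each), all lowest in TEM4-18 and JD1203.Lu.

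MAP2K4 had the narrowest spread of the members. Its probe set 203266_s_at read 2591 and 2423 in TEM4-18, 2303 in GS683.LALN, 2517 in JD1203.Lu, 2825 in GS672.Ug, 2559 in GS694.LAd and 2607 in GS689.Li. The highest array read 1.23 times the lowest, and the SD lay at the 1.5 percentile of all genes. A second probe set (203265_s_at) ran from 1299 in GS683.LALN to 1968 in GS672.Ug, the same extremes. The difference from TEM4-18 was 0.03 ± 0.15 for all 5 sublines (limma adjusted p = 0.972), with an interval from -0.32 to 0.37, which leaves out changes of 2-fold.

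Around MAP2K4, 22 of 27 listed genes of the stress kinase cascade were tested, and 1 rose in the PC-3 sublines against TEM4-18, beside 3.38% of all genes. DUSP1, a phosphatase that inactivates JNK and p38, read 1437 and 1545 in TEM4-18 and 2634 to 3714 in these lines, a difference of 1.11 ± 0.21 (limma adjusted p = 0.0255). This call was lost without either TEM4-18 array, GS689.Li or GS694.LAd, with an adjusted p of up to 0.26, as the mean of its probe sets (0.0515) and with GS689.Li and GS694.LAd averaged (0.102). In the other comparisons 0 passed limma and 1 (all sublines), 2 (TEM4-18 sublines) and 4 (between the subline groups) lay under an unadjusted p of 0.05. The genes most like MAP2K4 were TM7SF2 (r = 0.97), NBEAP1 (0.95) and IL1R1 (0.95).

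PEBP1 read 27472 and 28663 in TEM4-18, 25698 in GS683.LALN, 30316 in JD1203.Lu, 22784 in GS672.Ug, 25109 in GS694.LAd and 27367 in GS689.Li on the probe set of highest mean (211941_s_at). The PC-3 sublines all lay below the duplicates, by a small margin in GS689.Li, and JD1203.Lu was highest. The difference was -0.17 ± 0.13 for the PC-3 sublines (limma adjusted p = 0.543) and -0.10 ± 0.13 for all 5 sublines (adjusted p = 0.852). On 205353_s_at all 5 sublines, at 8997 to 11379, lay below the duplicates at 11905 and 14234, a difference of -0.40 ± 0.15 (limma adjusted p = 0.572 over all probe sets). The probe set 210825_s_at gave -0.26 ± 0.15 (limma adjusted p = 0.687). There GS689.Li (18266) and JD1203.Lu (18001) lay between the duplicates, at 17911 and 20420. The 3 probe sets had the same sign against TEM4-18, with sizes that differed.

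Of 27 listed genes of the ERK cascade and its regulators, 20 were tested. SPRED2, an inhibitor of ERK signalling, was lower in the PC-3 sublines than in the TEM4-18 sublines, with a difference of -0.81 ± 0.17 (limma adjusted p = 0.0352), with signals of 4985 to 7150.3 against 10159 and 10766. It was the 1 listed gene that passed there, beside 3.76% of all genes. Against TEM4-18 its difference was -0.71 ± 0.17 (limma adjusted p = 0.0609). The call held without GS672.Ug and was lost without any other single array, and the adjusted p rose to 0.123 without GS694.LAd. It was also lost as the mean of its probe sets (-0.61; limma adjusted p = 0.0728) and with GS689.Li and GS694.LAd averaged (0.108). No listed gene passed limma in the other comparisons, where 1 (all sublines), 5 (PC-3 sublines) and 2 (TEM4-18 sublines) lay under an unadjusted p of 0.05. PBLD (r = 0.97), TRAM2 (0.97) and LINC01355 (0.96) were most like PEBP1.

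NME1 read 45684 and 46994 in TEM4-18, 47775 in GS683.LALN, 41960 in JD1203.Lu, 56850 in GS672.Ug, 53246 in GS694.LAd and 46493 in GS689.Li. GS672.Ug was highest and JD1203.Lu lowest, and GS689.Li lay between the duplicates. The difference from TEM4-18 was 0.08 ± 0.13 for all 5 sublines (limma adjusted p = 0.883; interval -0.21 to 0.37) and 0.17 ± 0.12 for the PC-3 sublines (adjusted p = 0.509). Among 14 tested genes of 17 listed nucleoside diphosphate kinases and NME1 partners, APEX1, a DNA repair endonuclease, was higher in the PC-3 sublines than in the TEM4-18 sublines by 0.53 ± 0.11 (limma adjusted p = 0.0368), the 1 gene of this list to pass there, beside 3.76% of all genes. Its signals were 25377 to 26165 in the former, 19116 and 16737 in the latter, and 23594 and 24235 in TEM4-18. That call held without GS672.Ug and without GS683.LALN and was lost without any other single array, with an adjusted p of up to 0.132 without GS694.LAd. It was also lost with no filter (0.0574), with median centring (0.118) and with GS689.Li and GS694.LAd averaged (0.117). In the other comparisons 0 passed limma, with 2 (all sublines), 4 (PC-3 sublines) and 2 (TEM4-18 sublines) under an unadjusted p of 0.05. ABCA5 (r = 0.98), DBT (0.97) and CDK20 (0.96) were most like NME1.

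BRMS1 read 4648 and 4813 in TEM4-18, 4668 in GS683.LALN, 3659 in JD1203.Lu, 4866 in GS672.Ug, 4949.7 in GS694.LAd and 5759 in GS689.Li. JD1203.Lu stood below and GS689.Li above the other 5 arrays, which lay close together. The difference from TEM4-18 was 0.13 ± 0.16 for the PC-3 sublines (limma adjusted p = 0.737) and -0.19 ± 0.18 for the TEM4-18 sublines (adjusted p = 0.757). Between the subline groups it was 0.32 ± 0.16 (limma adjusted p = 0.319). The genes most like BRMS1 were FZD1 (r = 0.99), RRAS2 (0.98) and TRMT61A (0.97), each lowest in JD1203.Lu and highest in GS689.Li.

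Of 17 listed genes of the BRMS1 and SIN3 corepressor complex, 15 were tested and 0 passed limma in any comparison, with 0 (all sublines), 2 (PC-3 sublines), 3 (TEM4-18 sublines) and 3 (between the subline groups) under an unadjusted p of 0.05. Their median difference was -0.15 in the PC-3 sublines and -0.11 in the TEM4-18 sublines, beside 0.05 and 0.01 for all genes tested. HDAC2, a histone deacetylase of this complex, read 513 in JD1203.Lu and 9979 to 13856 on the other 6 arrays. The difference between the subline groups, 2.19 ± 0.91 (limma adjusted p = 0.223), became 0.11 without JD1203.Lu. It became 4.27 without GS683.LALN, which leaves JD1203.Lu alone in its group, with an adjusted p of 2.55e-05.

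No member passed limma in any of the 4 comparisons. By gene, 0 of 8 passed, with 1 (CD82) under an unadjusted p of 0.05 for all 5 sublines against TEM4-18, 2 (CD82 and NDRG1) for the PC-3 sublines, 1 (CD82) for the TEM4-18 sublines and 1 (NDRG1) between the subline groups. Of all genes 8.33%, 17.8%, 9.72% and 19.7% lay under that unadjusted value, and 0%, 3.38%, 0.0733% and 3.76% passed. By probe set, 0 of 13 passed, beside 0%, 2.96%, 0.0336% and 3.4% of all 32747 probe sets tested, with 2, 4, 2 and 1 members under an unadjusted p of 0.05 in the same order, beside 7.87%, 16.7%, 9.08% and 18.4% of all probe sets. CD82 entered the unadjusted counts through the arrays where it is high. With so few genes on the list, a count of 0 is near what these background shares give.

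**Figure D4:**
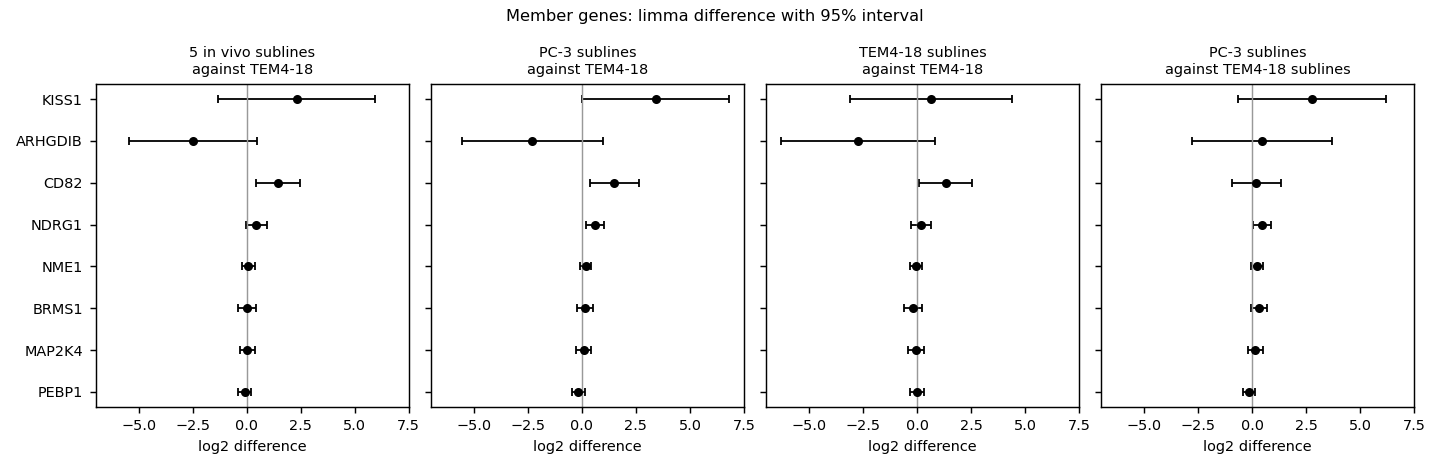
Limma log2 difference of the 8 genes in the 4 comparisons, with 95% intervals not adjusted for the number of genes. Intervals of KISS1 and ARHGDIB span several log2 units, those of NME1, BRMS1, MAP2K4 and PEBP1 stay within 1 unit of 0, and no member passed after adjustment.

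Counted by size in single sublines, a member was at least 2-fold from the TEM4-18 mean and outside both duplicates as follows. GS689.Li had 3 of 8 (KISS1, ARHGDIB and CD82; 10.2% of all genes), GS694.LAd had 2 (KISS1 and ARHGDIB; 10.6%) and JD1203.Lu had 2 (KISS1 and CD82; 8.75%). GS672.Ug had 1 (CD82; 8.37%) and GS683.LALN had 1 (ARHGDIB; 5.71%). The 3 genes KISS1, ARHGDIB and CD82 made up all of these counts. Between the sister lines GS694.LAd and GS689.Li, 3 of 8 members (the same 3) lay at least 2-fold apart, beside 4.71% of all genes, and between JD1203.Lu and GS683.LALN 2 did (KISS1 and ARHGDIB), beside 10.5%. These counts rest on single arrays and carry no test. KISS1 and CD82 passed the filter through arrays where they are high, so their part in the counts lends no support to a difference.

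The arrays of the groups did not overlap for 2 of 8 members when all 5 sublines were set against TEM4-18, namely CD82 (higher) and ARHGDIB (lower), beside 16.6% of all genes. For the PC-3 sublines there were 5 (CD82, BRMS1 and NDRG1 higher, ARHGDIB and PEBP1 lower), beside 41.4%, and for the TEM4-18 sublines 2 (CD82 higher, ARHGDIB lower), beside 44.2%. Between the subline groups there were 3 (BRMS1, MAP2K4 and NDRG1, all higher in the PC-3 sublines), beside 32.9%. These comparisons share arrays, so their counts are not independent of each other. They rest on the probe set that stands for each gene. CD82 passed the filter through the sublines, so its place here lends no support to a difference. On 228910_at of CD82 the sublines lay on both sides of the duplicates. JD1203.Lu fell between the duplicates on 1555812_a_at of ARHGDIB, and GS689.Li did on 210825_s_at of PEBP1.

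Of 25 further reported metastasis suppressors, 18 were tested, and 3 passed in a comparison, all higher in the PC-3 sublines. Against TEM4-18 2 passed and between the subline groups 3 did, beside 3.38% and 3.76% of all genes. In limma 0 passed for all 5 sublines and for the TEM4-18 sublines, where 2 each lay under an unadjusted p of 0.05. SERPINB5 (maspin), a serpin of epithelial cells, read 1183 and 1154 in TEM4-18, 1509 and 1554 in the TEM4-18 sublines and 7318 to 8477 in the PC-3 sublines. It rose by 2.69 ± 0.15 against TEM4-18 (limma adjusted p = 0.000195) and by 2.31 ± 0.15 against the TEM4-18 sublines (adjusted p = 0.000482), and both calls held with any 1 of the 7 arrays left out. DLC1, a GTPase-activating protein, read 57.5 and 9.44 in TEM4-18, which is near or below the offset, 160 and 333 in the TEM4-18 sublines and 867 to 2654 in the PC-3 sublines. Outside the PC-3 sublines its mean lay below the filter of 160.67, so DLC1 was tested because of the lines where it is high. Its calls describe those lines and lend the group comparison no support. Its fitted differences were 4.58 ± 0.53 (limma adjusted p = 0.00333) and 2.71 ± 0.53 (adjusted p = 0.0295), with adjusted p up to 0.0565 without replicate 2 of TEM4-18 and up to 0.125 without GS694.LAd. The second was also lost without replicate 1 of TEM4-18 (0.0523), without GS683.LALN (0.0959), with no offset (0.0909) and with no filter (0.0503). THBS1 (thrombospondin 1), an inhibitor of vessel growth, was higher in the PC-3 sublines than in the TEM4-18 sublines by 1.48 ± 0.32 (limma adjusted p = 0.0406). This call was lost without either TEM4-18 array (0.0928 and 0.0933), without GS683.LALN (0.0961, with a difference of 1.01), without GS689.Li (0.135) and without GS694.LAd (0.152). It was also lost with no filter (0.082), quantile normalization (0.0516), the mean of the probe sets (1.09; limma adjusted p = 0.132) and the sister lines averaged (0.132). The list's median was 0.19 for the PC-3 sublines against TEM4-18 and 0.28 between the subline groups, beside 0.05 and 0.05 for all genes. Over all lists, 12 of 148 tested genes passed in at least 1 comparison, beside 5.28% of all genes.

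Some of the endothelial markers were also higher in the PC-3 sublines. All 10 listed were in the table and 4 passed the filter. The summed signal of all 10 was 3183 to 3225 in TEM4-18, 10140.0 to 12566 in the PC-3 sublines and 3845 to 5897 in the TEM4-18 sublines. KDR, ROBO4 and PECAM1 were higher in the PC-3 sublines than in TEM4-18 (limma adjusted p = 0.0227, 0.0123 and 0.0222), where 3.38% of all genes passed. These calls were not checked with arrays left out or sister lines averaged. CDH5 and VWF, which define endothelium, stayed below the filter at no more than 88.2 and 215.6, as did TEK, TIE1, CLDN5 and EMCN. All 9 fibroblast markers were in the table and 6 passed the filter. The sums over all 9 were 18232 to 19822 in TEM4-18, 14353 to 23582 in the PC-3 sublines and 4976 to 32958 in the TEM4-18 sublines. These sums followed mainly COL1A1 (3071 to 30752) and PDGFRA (41.1 to 6026), since no other fibroblast marker exceeded 614 (LUM). The part of the endothelial and fibroblast markers in the differences of the members was not tested.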

How the data were processed

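Total RNA of 7 cultures was hybridised to 1-colour Affymetrix arrays. The authors deposited linear intensity values from MAS5 (no version given), per the submitters' processing notes. Of 54675 probe sets, 41097 have 1 gene symbol in the platform table, 1801 several and 11777 none, and 41043 of the first were matched to RefSeq by gene identifier. Groups follow the parent line in each sample's description.

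Before log2, 46.942 (the 20th percentile over the whole table) was added as an offset, and probe sets with a mean under 160.67 (the 40th percentile) were left out. The probe set of highest mean stood for its gene, which left 13640 genes. limma 3.58.1 in R 4.3.3 (lmFit, eBayes with an intensity trend, 2-sided, Benjamini-Hochberg over all genes) gave the comparisons, with a threshold of 0.05. All 5 sublines against TEM4-18 used a model of 2 groups, and the other comparisons 1 model of 3 groups. A separate fit covered 32747 probe sets. The fit was tested on simulated data whose spread was capped below that of KISS1 and ARHGDIB, so that test does not cover genes as variable as these. Errors are standard errors from limma, and the number of arrays limits the precision.

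All 8 members are named whatever their values. Of each list, genes that passed are named, up to 4 of largest size per comparison, and otherwise up to 2 of lowest p, of which some are described. Genes most like a member were taken by correlation among genes whose SD reached the median gene. The members, lists and rules were chosen with earlier results of these data known. Alternatives changed the offset, the filter, the scaling, the probe set, the treatment of GS689.Li and GS694.LAd, and the arrays included. Listed genes without a single-symbol probe set were not analysed here, and 1 list is not reported here. Promoter windows come from RefSeq (GRCh38.p14).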

Additional observations from a re-analysis of the deposited data

Results flagged for a closer look

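Among the 5 in vivo sublines, each of the 14 member probe sets and 20 named list genes were checked for an array that stands apart by Dixon's test, which chance alone meets in about 1 of 20. ARHGDIB on 1555811_at read 37.84 in GS683.LALN, and its gap to the next subline was 0.796 of the range, above the critical value of 0.71. HDAC2 read 513.16 in JD1203.Lu, with a gap of 0.961 of the range on the same scale. So few hits are near what chance gives over all the sets and genes checked. That rate is a rough guide only, because the list genes were picked by their results on these arrays. The count also says nothing of the size of a gap, which for HDAC2 lay well past the critical value.

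The difference from TEM4-18 was not the same in both subline groups for 6 list genes, by the limma test of the PC-3 sublines against the TEM4-18 sublines. These were SERPINB5 (2.31), DLC1 (2.71), THBS1 (1.48), APEX1 (0.53), HIF1A (-0.66) and SPRED2 (-0.81), on the log2 scale. DLC1 entered this test through the lines where it is high. No member passed this test.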

How the results depend on the processing

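Of 524 alternative values of the members' differences, 490 kept their direction and their side of the threshold, 4 newly passed it, and 30 reversed, none of them where called. The number of members that passed stayed at 0 in all settings that kept every array. With 1 array left out it ranged from 0 to 1 for the PC-3 sublines, both against TEM4-18 and against the TEM4-18 sublines. Median centring, which moved the median of all genes in the former from 0.05 to -0.14, turned NME1 (-0.043), BRMS1 (-0.123) and MAP2K4 (-0.095) for all 5 sublines. It likewise turned NME1 (-0.027), BRMS1 (-0.065) and MAP2K4 (-0.108) for the PC-3 sublines against TEM4-18, and MAP2K4 (-0.033) between the subline groups. Averaging GS689.Li and GS694.LAd turned BRMS1 for all 5 sublines (-0.043). The mean of the probe sets turned MAP2K4 there (-0.02). It also turned SAP30L, a list gene and not a member, in the PC-3 sublines against TEM4-18, from -0.65 (limma adjusted p = 0.199) to 0.21. Other probe sets turned ARHGDIB (0.10 for all sublines and 0.54 for PC-3 sublines, 1555811_at), MAP2K4 (-0.070 and -0.025, 203265_s_at) and PEBP1 between the subline groups (0.12, 205353_s_at). The cause was not tested.

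With 1 array left out, differences for all 5 sublines ranged from -0.070 to 0.092 for BRMS1 and from -0.019 to 0.076 for MAP2K4. For the TEM4-18 sublines they ranged from -0.143 to 0.044 (NME1), -0.127 to 0.111 (PEBP1), -0.071 to 0.430 (NDRG1), -0.119 to 0.007 (MAP2K4) and -0.34 to 1.65 (KISS1). Between the subline groups they ranged from -2.08 to 2.97 for ARHGDIB and from -0.18 to 0.60 for CD82. Where this left 1 array in a group, that array was assumed to vary like the other groups. CD82 had no value with the filter at the 60th percentile or without the _x_at probe sets. Of 15 calls of list genes, 12 were lost without either TEM4-18 array, 11 without GS689.Li, 12 without GS694.LAd, 11 with both averaged, 6 with no filter and 5 with probe sets averaged. Calls over all genes for the PC-3 sublines against TEM4-18 moved from 461 to 160 with both averaged, to 44 and 31 without replicates 1 and 2 of TEM4-18, and to 940 without GS672.Ug. Signals near the offset of 46.942, as of KISS1 in 4 arrays and ARHGDIB in GS683.LALN and GS689.Li, carry little information on the size of a fold.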
